A study of Mus musculus with 10 samples.

Results

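The mitochondrial protein import machinery is described here in the mouse ventricle through 35 genes, listed by their role: the translocases of the outer membrane (TOM) and of the inner membrane (TIM), the motor that pulls precursors into the matrix, the disulfide relay of the intermembrane space and the peptidases that trim imported proteins. Of these, 33 had a probe set annotated to that gene alone, and all 33 passed the filter on dim signals, out of 13870 genes tested and 19938 genes with such a probe set. Timm10b was read only by a probe set that it shares with another gene, and Immp2l was not found in the annotation used, so neither is given a value. The 33 genes were read by 40 probe sets, and for the 5 genes with several the brightest one was used.

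The samples were ventricles of 10 mice, with 1 array per mouse and 5 mice per group. All 10 mice were labelled as knockouts of PGC-1a (Ppargc1a). The source names also give both groups PGC-1bf/f, floxed alleles of the Ppargc1b gene, together with the tamoxifen-activated recombinase MerCre. The titles call the control group PGC-1a-/- and give bf/f and MerCre to the other group only, so by the titles genotype and treatment cannot be told apart. At 2 months of age the mice titled PGC-1a-/-bf/f/MerCre received tamoxifen in sunflower seed oil (50 mg/kg per day on 2 days) and those titled PGC-1a-/- received the oil alone, and tissue was taken 1 month later, at 3 months. Which promoter drives MerCre is not stated in the labels. By the labels, no group had intact PGC-1a and none had tamoxifen without the floxed alleles. As labelled, the comparison asks what deletion of PGC-1b in the adult adds to a knockout of PGC-1a; the arrays themselves showed a lower signal for neither gene, as given below.

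Most mitochondrial proteins are encoded in the nucleus, made in the cytosol and imported. Precursors bind TOM receptors and cross the outer membrane through Tomm40. Proteins with a cleavable presequence then pass the Timm23 channel, pulled in by the chaperone Hspa9 and its cofactors, and the presequence is cut off in the matrix. Metabolite carriers are instead escorted across the intermembrane space by small TIM chaperones to the Timm22 channel, and small cysteine-rich proteins are folded by the Chchd4 and Gfer relay. A working heart muscle cell is packed with mitochondria, and PGC-1 coactivators are known for raising nuclear genes of mitochondrial proteins.

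Several facts of the whole series bear on every value below. Values are log2 signals made by the authors with RMA, a method that corrects background, normalizes arrays to each other and combines the probes of a probe set, and they carry no detection call. Ppargc1b, the gene meant to be deleted, did not follow its label. It rose by 0.27 ± 0.061 (log2 fold change ± SE, limma adjusted p = 0.00518) in the tamoxifen-labelled arrays, and its single probe set checks nothing if it lies outside the deleted exons. Ppargc1a, which every label gives as knocked out, still had signals of 10.81 ± 0.14 (vehicle-labelled) and 11.20 ± 0.23 (tamoxifen-labelled; SD, n = 5 per group) and was called higher in the latter (0.39 ± 0.095, limma adjusted p = 0.00797). The arrays are therefore called vehicle-labelled and tamoxifen-labelled, and every direction rests on those labels. The tissue label held as far as heart muscle, since 12 of 12 heart muscle genes were bright, from Myh7 at a mean of 10.53 (log2 signal) to Actc1 at 14.59. Whether the tissue was ventricle rather than atrium was not tested. Tamoxifen-labelled array 2 stood apart, its median over all probe sets being 7.31, when the other 9 medians lay between 7.18 and 7.24.

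Import genes split in the tamoxifen-labelled arrays: 15 of 33 fell, 4 rose and 14 were not called at a Benjamini-Hochberg adjusted p of 0.05 over all 13870 genes (limma). Over all tested genes, 8.31% were lower and 13.7% were higher. The median log2 fold change of the 33 genes was -0.13, against 0.014 over all tested genes, and the values ran from -0.90 for Tomm40l to 0.30 for Gfer. In 9 of the 33 the fall was 1.5-fold or more, which 1.08% of all tested genes reached (1.18% without tamoxifen-labelled array 2). Without tamoxifen-labelled array 2, 16 import genes were lower and 4 higher, against 11.9% and 11.7% of the genes tested then. Fewer cells of a type and less RNA per cell cannot be told apart in bulk tissue. Of 13 macrophage markers 9 rose and 0 fell, with a summed signal of 12.77 to 12.98 in the vehicle-labelled and 13.01 to 13.28 in the tamoxifen-labelled arrays (log2), and 7 of 12 fibroblast markers rose and 0 fell, with 14.27 to 14.34 and 14.41 to 14.54. The dimmest marker of these lists was Fcgr1 at 6.81 among macrophage genes and Thy1 at 8.0 among fibroblast genes. Heart muscle markers summed to 17.28 to 17.32 and 17.34 to 17.37, with 2 of 12 higher and 1 lower. The part of these cells in the import values was not tested.

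**Figure D1:**
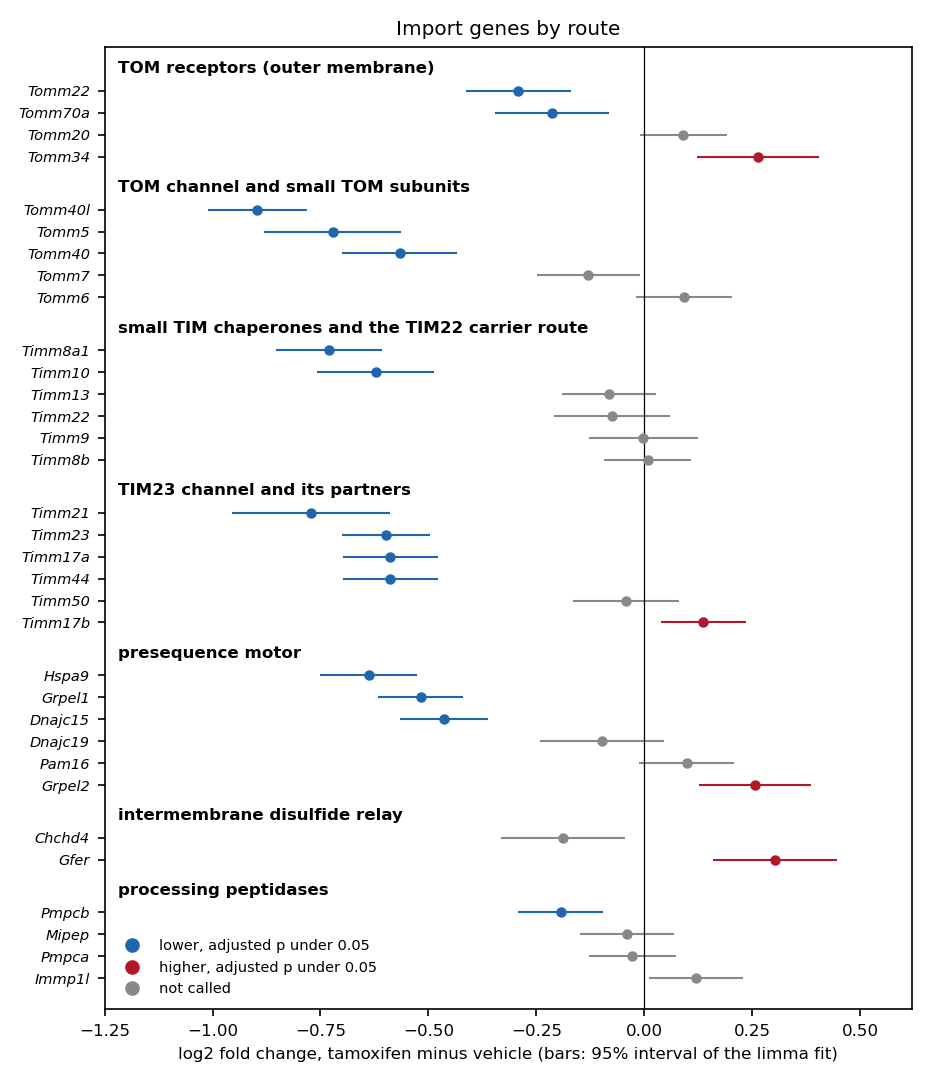
Log2 fold change (horizontal axis, tamoxifen-labelled minus vehicle-labelled arrays, 5 arrays per group) of the 33 import genes, grouped by route and ordered within it, with bars for the 95% interval of the limma fit. Blue genes fell, red genes rose and grey genes were not called; the deepest falls are those of Tomm40l and Timm21, and every route has at least 1 uncalled gene.

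**Figure D2:**
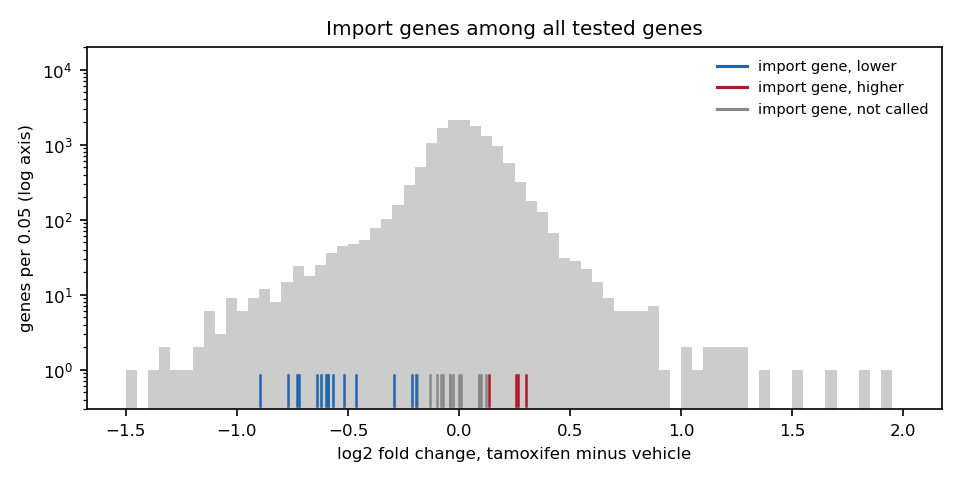
Number of tested genes (vertical log axis) in steps of 0.05 of log2 fold change (horizontal axis), with a tick for each of the 33 import genes. The 15 lower import genes lie between -0.90 and -0.19, and the 4 higher ones between 0.14 and 0.30.

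At the outer membrane, 3 of 5 genes of the TOM channel and its small subunits fell, and of 4 genes on the receptor list 2 fell, 1 rose and 1 was not called. Tomm40l, a copy of the channel gene, had the deepest fall of all import genes. Its signals were 8.94, 8.94, 9.09, 8.96 and 8.99 on vehicle-labelled arrays 1 to 5, against 8.14, 8.13, 8.18, 7.99 and 8.0 on tamoxifen-labelled arrays 1 to 5. All 5 tamoxifen-labelled values lay below all vehicle-labelled ones, a 1.86-fold fall (-0.90 ± 0.054, limma adjusted p = 6.84e-09). Across all tested genes, 6.15% had every tamoxifen-labelled array below every vehicle-labelled one and 10.5% had every one above; among import genes 14 of 33 and 3 of 33 did.

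Tomm40, the main channel protein, fell 1.48-fold. It read 9.43, 9.43, 9.40, 9.44 and 9.43 on vehicle-labelled arrays 1 to 5, against 8.70, 9.08, 8.93, 8.81 and 8.78 on tamoxifen-labelled arrays 1 to 5, with no overlap (-0.57 ± 0.063, limma adjusted p = 6.11e-06). The vehicle-labelled values were within 0.04 of each other, while the tamoxifen-labelled ones ranged from 8.70 to 9.08. Of the small subunits that steady the channel, Tomm5 fell 1.65-fold, from 10.11 ± 0.13 to 9.39 ± 0.14 (SD, n = 5; limma adjusted p = 2.52e-06). Tomm6 and Tomm7 were not called: Tomm6 had a log2 fold change of 0.092 (95% interval -0.019 to 0.20) and Tomm7 one of -0.13 (-0.25 to -0.011, limma adjusted p = 0.113). Tomm7 was called lower after quantile normalization (-0.16, adjusted p = 0.0335; 0.0335 to 0.247 across the alternatives).

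Among the receptors, Tomm22, which also organises the complex, fell by 0.29 ± 0.057 (limma adjusted p = 0.00155) with no overlap between groups. Tomm70a, the receptor that takes carrier precursors from cytosolic chaperones, fell by 0.21 ± 0.062 (limma adjusted p = 0.0204), and its groups overlapped. That call was lost without vehicle-labelled array 2 or 3 or tamoxifen-labelled array 1 or 5, with adjusted p of 0.0571, 0.0506, 0.0564 and 0.0539 (range 0.000955 to 0.0571 over all alternatives). Tomm20, the presequence receptor, was not called, with 10.15 ± 0.058 and 10.24 ± 0.042 (SD, n = 5). A further Tomm20 probe set gave a log2 fold change of 0.10 beside 0.090. Tomm34, a cytosolic chaperone partner linked to import, rose 1.2-fold, from 9.60 ± 0.11 to 9.86 ± 0.12 (limma adjusted p = 0.00915), and its groups touched at a shared value of 9.75.

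At the inner membrane, 4 of 6 genes of the TIM23 channel and its partners fell. Their route median of -0.59 was the lowest of the 7 routes, close to the -0.57 of the TOM channel and its small subunits. Timm23 forms the channel for presequence proteins. Its signals were 12.71, 12.82, 12.81, 12.80 and 12.77 on vehicle-labelled arrays 1 to 5, against 12.11, 12.16, 12.27, 12.23 and 12.15 on tamoxifen-labelled arrays 1 to 5. The groups lay apart, with a 1.51-fold fall (-0.60 ± 0.048, limma adjusted p = 1.72e-07). All 4 Timm23 probe sets were lower, by -0.60, -0.55, -0.60 and -0.55, but a pair of them carried the same array values and the other pair nearly the same ones, so they are not 4 independent readings.

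Timm21, which links the TIM23 complex to TOM and to the respiratory chain, had the deepest fall of the route and the widest spread. It read 10.04, 9.81, 9.92, 9.94 and 9.74 on vehicle-labelled arrays 1 to 5, against 8.82, 9.39, 9.05, 9.18 and 9.15 on tamoxifen-labelled arrays 1 to 5. The groups lay apart (1.71-fold, -0.77 ± 0.086, limma adjusted p = 6.49e-06), and tamoxifen-labelled arrays 1 and 2 marked the low and the high end of their group. Timm44, the tether of the motor chaperone at the channel exit, fell 1.5-fold, from 9.20 ± 0.038 to 8.61 ± 0.091 (SD, n = 5; limma adjusted p = 4.66e-07). Timm50, the receptor that hands presequences to the channel, was not called, at 9.26 ± 0.058 and 9.22 ± 0.11 (SD, n = 5; 95% interval of the difference -0.17 to 0.081).

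The Timm17 paralogs, alternative partners of Timm23 in the channel, moved in opposite directions. Timm17a read 11.75, 11.80, 11.80, 11.77 and 11.70 on vehicle-labelled arrays 1 to 5, against 11.10, 11.27, 11.27, 11.15 and 11.09 on tamoxifen-labelled arrays 1 to 5, a fall of 0.59 ± 0.052 (limma adjusted p = 4.66e-07) with no overlap. Its other probe set fell by 0.49. Timm17b read 9.77, 9.76, 9.75, 9.77 and 9.74 on vehicle-labelled arrays 1 to 5, against 9.89, 9.93, 9.79, 9.96 and 9.90 on tamoxifen-labelled arrays 1 to 5, so every tamoxifen-labelled value was higher, but the rise was only 1.1-fold (0.14 ± 0.046, limma adjusted p = 0.0459). The Timm17b call was lost in 8 of the 10 fits that left out 1 array, with adjusted p from 0.0638 to 0.117. These were the fits without any 1 of the vehicle-labelled arrays or tamoxifen-labelled array 1, 4 or 5. Leaving out vehicle-labelled array 4 and tamoxifen-labelled array 2 together also lost it (0.0543). So did using no filter on dim signals (0.0839) or the replicate number as a block (0.0503). The call held in 9 of 20 alternatives (adjusted p range 0.0222 to 0.117 over all).

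The presequence motor showed the same mixture. Hspa9, the ATP-driven chaperone at its core, fell 1.56-fold, with signals of 12.21, 12.27, 12.26, 12.19 and 12.29 on vehicle-labelled arrays 1 to 5, against 11.55, 11.65, 11.71, 11.65 and 11.47 on tamoxifen-labelled arrays 1 to 5. The groups lay apart (-0.64 ± 0.053, limma adjusted p = 2.32e-07). Grpel1, the exchange factor that releases nucleotide from Hspa9, had 10.27, 10.26, 10.27, 10.28 and 10.29 on vehicle-labelled arrays 1 to 5, against 9.78, 9.78, 9.80, 9.78 and 9.64 on tamoxifen-labelled arrays 1 to 5. This was a 1.43-fold fall (-0.52 ± 0.047, limma adjusted p = 5.61e-07) with vehicle-labelled values within 0.03 of each other. Its paralog Grpel2 rose 1.19-fold, from 9.63, 9.71, 9.60, 9.72 and 9.80 on vehicle-labelled arrays 1 to 5, against 9.83, 10.14, 9.89, 9.94 and 9.94 on tamoxifen-labelled arrays 1 to 5 (0.26 ± 0.061, limma adjusted p = 0.00641), again with no overlap.

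The J proteins, which stimulate Hspa9, differed as well. Dnajc15 fell 1.38-fold, from 10.85 ± 0.019 to 10.39 ± 0.075 (SD, n = 5; limma adjusted p = 2.80e-06), while Dnajc19 was not called at -0.098 (95% interval -0.24 to 0.046). Pam16, which holds the J protein at the channel, was not called, at 0.098 with one probe set and 0.072 with the other. Within the motor, 3 of 6 genes fell, 1 rose and 2 were not called.

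Among the small TIM chaperones and the carrier channel gene, 2 of 6 measured genes were called, Timm8a1 and Timm10, both lower. Timm8a1, whose human counterpart is mutated in deafness-dystonia syndrome, read 7.91, 8.08, 7.85, 7.87 and 7.89 on vehicle-labelled arrays 1 to 5, against 7.17, 7.34, 7.18, 7.11 and 7.15 on tamoxifen-labelled arrays 1 to 5. It fell 1.66-fold with no overlap (-0.73 ± 0.058, limma adjusted p = 1.42e-07). Its other probe set fell by 0.69, from a mean of 7.33 to 6.64, close to the dim cutoff of 6.55. Timm10 fell 1.54-fold, from 9.44 ± 0.12 to 8.82 ± 0.092 (SD, n = 5; limma adjusted p = 2.52e-06). The proteins these partner in hexameric chaperones were not called: Timm13, partner of the Timm8 proteins, had -0.082 (95% interval -0.19 to 0.026), and Timm9, partner of Timm10, had -0.0020 (-0.13 to 0.12). Timm8b read 11.88 ± 0.042 and 11.89 ± 0.058 (SD, n = 5; interval -0.092 to 0.11). The carrier channel gene Timm22 read 8.35 ± 0.11 and 8.27 ± 0.100 (SD, n = 5; interval -0.21 to 0.061).

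In the intermembrane relay, Gfer, the oxidase that recharges the relay, had the highest rise of the import genes. It read 8.38, 8.48, 8.29, 8.37 and 8.30 on vehicle-labelled arrays 1 to 5, against 8.80, 8.85, 8.51, 8.57 and 8.60 on tamoxifen-labelled arrays 1 to 5, a 1.23-fold rise with no overlap (0.30 ± 0.068, limma adjusted p = 0.00421). Chchd4, the oxidoreductase it recharges, went the other way without a call (-0.19 ± 0.068, limma adjusted p = 0.0579). Chchd4 was called lower without vehicle-labelled array 1 (adjusted p = 0.0485) or tamoxifen-labelled array 2 (adjusted p = 0.0186). It was also called lower after quantile normalization (0.0146) or median centring (0.0312) and with array weights (0.00720). The same held with the dimmest 50% left out (0.0370), a trended and robust limma prior (0.0366) or the replicate number as a block (0.0205). Leaving out vehicle-labelled array 4 and tamoxifen-labelled array 2 together gave 0.0170. The alternatives spanned 0.00720 to 0.146, so the missing call depends on the processing.

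Of the processing peptidases, 1 of 4 measured genes fell. Pmpcb, the catalytic subunit of the matrix processing peptidase, read 10.94, 11.01, 10.96, 10.97 and 11.01 on vehicle-labelled arrays 1 to 5, against 10.73, 10.86, 10.76, 10.82 and 10.75 on tamoxifen-labelled arrays 1 to 5. The fall was small, 1.14-fold, with no overlap (-0.19 ± 0.046, limma adjusted p = 0.00622). Its partner subunit Pmpca had -0.028 (95% interval -0.13 to 0.072), Mipep, which trims some matrix proteins further, -0.040 (-0.15 to 0.069), and Immp1l, of the inner membrane peptidase, 0.12 (0.011 to 0.23, limma adjusted p = 0.111).

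**Figure D3:**
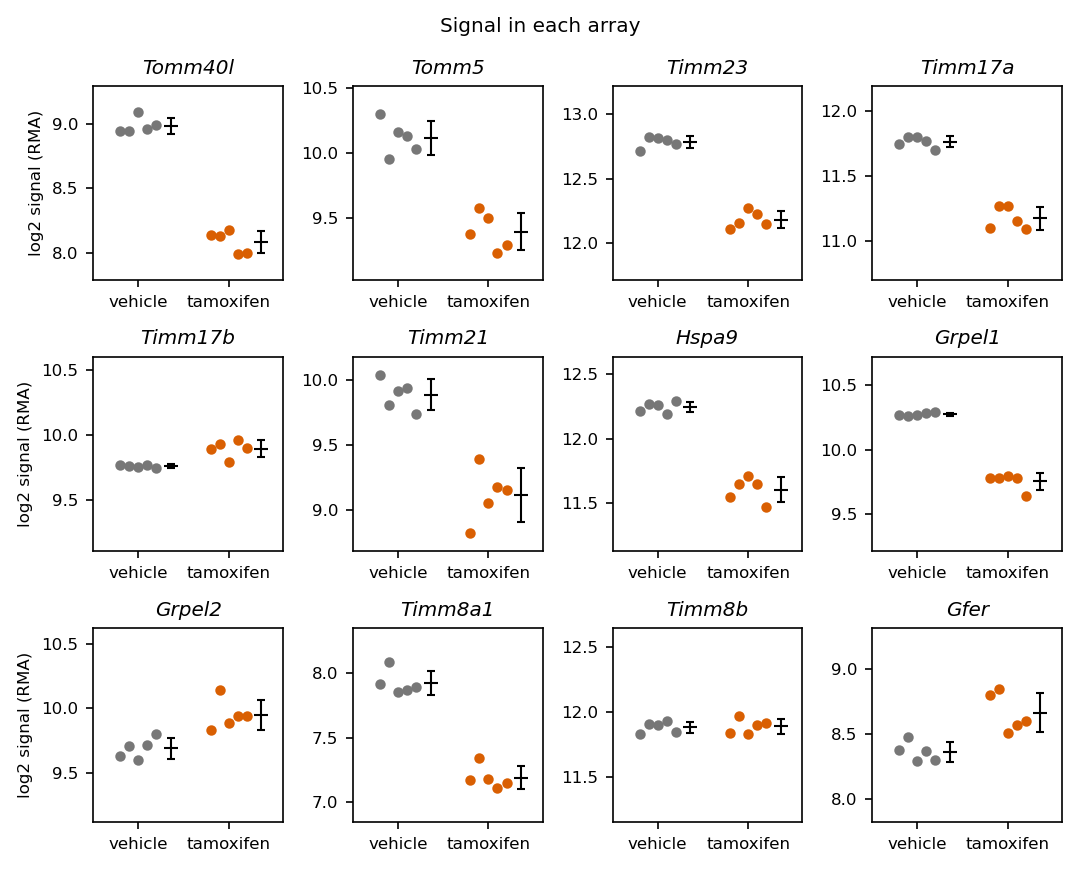
Log2 signal (vertical axis, each panel spanning 1.5 units) of 12 import genes in the 5 vehicle-labelled (grey) and 5 tamoxifen-labelled (orange) arrays, with the mean and SD beside each group. The orange points lie below the grey ones in Tomm40l, Tomm5, Timm23, Timm17a, Timm21, Hspa9, Grpel1 and Timm8a1, above them in Timm17b, Grpel2 and Gfer, and among them in Timm8b.

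Unequal change of related genes was tested directly, as the difference between both genes within each array, which a shift of a whole array cannot alter. All 8 pairs that could be formed changed unequally, each with an exact two-sided permutation p of 0.00794, the smallest that 5 against 5 arrays can give, and an adjusted p of 0.00794 over the 8 pairs. No pair had a tamoxifen-labelled difference within the range of its vehicle-labelled ones. The pairs were chosen with earlier results of these data known. How often other pairs of genes would separate in this way was not tested. The largest change was that of Grpel1 against Grpel2, -0.77 ± 0.068 (SE). Their difference went from 0.58 ± 0.073 to -0.19 ± 0.13 (SD, n = 5), so its sign reversed. Signals of different probe sets do not rank the amounts of both transcripts, so only the change is read. Timm8a1 against Timm8b changed by -0.74 ± 0.054 and Timm17a against Timm17b by -0.72 ± 0.059. Timm23 against Timm22, the channels of the presequence and carrier routes, changed by -0.52 ± 0.077.

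The other pairs moved less. Dnajc15 against Dnajc19 changed by -0.37 ± 0.074. Tomm40l against Tomm40 changed by -0.33 ± 0.072, so the copy fell further than the main channel gene. Among the receptors, Tomm20 against Tomm70a changed by 0.30 ± 0.051, and Pmpca against Pmpcb had the smallest change, 0.17 ± 0.029. Timm10b and Immp2l had no value, so 2 further pairs could not be tested.

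**Figure D4:**
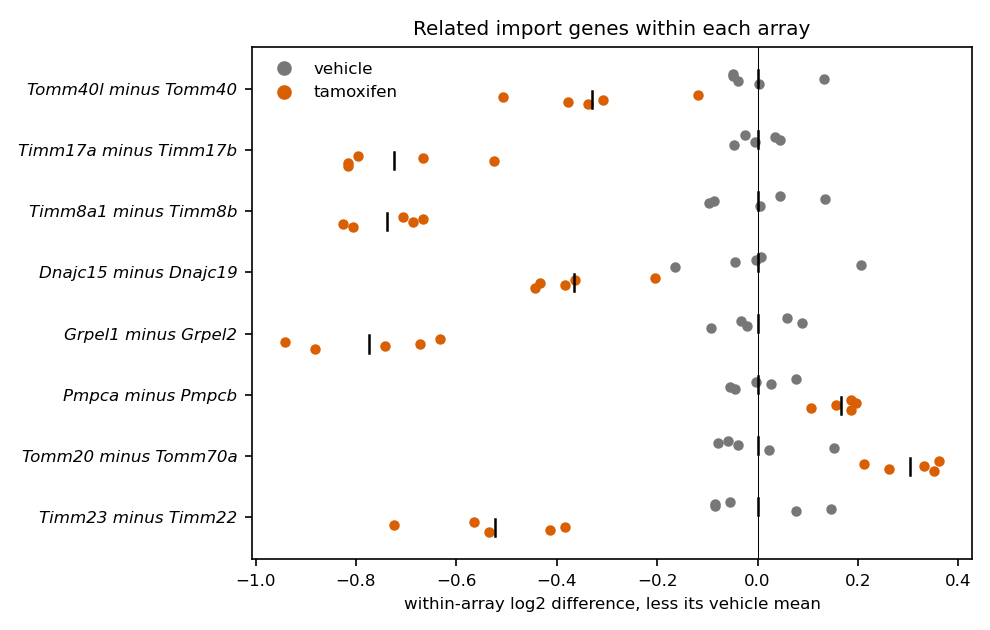
Within-array log2 difference between related import genes, less its mean in the vehicle-labelled arrays (horizontal axis), for 8 pairs in the 5 vehicle-labelled (grey) and 5 tamoxifen-labelled (orange) arrays; black bars mark group means. The groups lie apart in every pair, and the mean change runs from -0.77 for Grpel1 minus Grpel2 to 0.30 for Tomm20 minus Tomm70a.

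Promoter windows of the members, from 250 bases before to 50 bases after the start site, were taken from RefSeq (build GRCm38.p6, 5′ to 3′ along the gene) for 28 of the 33 genes. The windows below belong to the paralog pairs whose difference changed most and to the channel gene Timm23. Grpel2 is missing because it had no window. Capitals mark matches, on either strand, to the letters TCAAGGTCA (single-site element of estrogen-related receptors, partners of PGC-1), AAGGTCA (its core, counted also inside it), GCGCATGC (core of NRF1), CCGGAAG (ETS core, as bound by GABP), AAGATGGC (core of YY1) or CACGTG (E-box).
Timm17a (chr1:135313688-135313987, minus strand): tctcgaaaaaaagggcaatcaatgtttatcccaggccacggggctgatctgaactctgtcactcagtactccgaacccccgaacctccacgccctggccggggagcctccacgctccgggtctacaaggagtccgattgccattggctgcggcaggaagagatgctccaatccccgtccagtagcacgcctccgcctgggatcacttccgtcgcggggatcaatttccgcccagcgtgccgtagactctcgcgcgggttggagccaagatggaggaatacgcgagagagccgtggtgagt
Timm17b (chrX:7899086-7899385, plus strand): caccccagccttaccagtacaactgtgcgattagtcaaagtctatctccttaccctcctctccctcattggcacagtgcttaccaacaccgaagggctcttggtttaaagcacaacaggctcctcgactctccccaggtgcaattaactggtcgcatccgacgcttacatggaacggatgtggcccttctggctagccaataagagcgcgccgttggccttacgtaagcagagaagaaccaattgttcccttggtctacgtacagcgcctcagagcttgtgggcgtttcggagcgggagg
Timm8a1 (chrX:134541621-134541920, minus strand): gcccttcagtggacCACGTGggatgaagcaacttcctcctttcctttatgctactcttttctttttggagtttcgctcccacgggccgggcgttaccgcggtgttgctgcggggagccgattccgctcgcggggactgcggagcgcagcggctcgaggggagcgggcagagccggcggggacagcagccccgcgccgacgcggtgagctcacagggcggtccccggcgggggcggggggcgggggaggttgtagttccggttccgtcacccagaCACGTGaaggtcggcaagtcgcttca
Timm8b (chr9:50603651-50603950, plus strand): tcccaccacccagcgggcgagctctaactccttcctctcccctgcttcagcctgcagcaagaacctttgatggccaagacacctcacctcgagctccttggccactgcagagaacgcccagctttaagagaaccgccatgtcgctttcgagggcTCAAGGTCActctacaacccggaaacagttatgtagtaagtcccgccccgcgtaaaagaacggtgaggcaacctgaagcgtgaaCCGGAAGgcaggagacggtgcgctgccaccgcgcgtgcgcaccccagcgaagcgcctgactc
Timm23 (chr14:32201842-32202141, minus strand): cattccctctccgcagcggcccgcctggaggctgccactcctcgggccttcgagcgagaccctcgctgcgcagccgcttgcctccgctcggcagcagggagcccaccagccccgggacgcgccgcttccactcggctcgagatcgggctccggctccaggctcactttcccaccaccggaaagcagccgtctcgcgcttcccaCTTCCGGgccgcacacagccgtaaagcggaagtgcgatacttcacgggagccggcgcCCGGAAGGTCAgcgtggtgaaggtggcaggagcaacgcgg
Grpel1 (chr5:36464935-36465234, plus strand): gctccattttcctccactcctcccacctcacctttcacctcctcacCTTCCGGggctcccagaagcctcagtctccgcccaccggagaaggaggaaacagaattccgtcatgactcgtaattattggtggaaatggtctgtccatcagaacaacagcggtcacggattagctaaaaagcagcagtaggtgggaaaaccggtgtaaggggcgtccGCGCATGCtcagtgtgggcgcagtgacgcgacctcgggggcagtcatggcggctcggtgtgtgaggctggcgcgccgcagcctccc

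The falling Timm17a and the rising Timm17b held none of these letters in their windows. Timm8a1, which fell, held CACGTG at both ends of its window, whereas Timm8b, which was not called, held TCAAGGTCA from position -96 (counted from the start site) and CCGGAAG from position -12. In Timm23 a CCGGAAG and an AAGGTCA overlap just after the start and a further CCGGAAG lies at -47, and Grpel1 held GCGCATGC from position -36 and CCGGAAG from position -204. Among the 28 genes, TCAAGGTCA was found in 1, AAGGTCA in 3, GCGCATGC in 2, CCGGAAG in 9, AAGATGGC in 2 and CACGTG in 4. Some genes have several windows, so shares are given by window, over 30 member windows, all 32851 windows and the 13947 windows of tested genes. CCGGAAG was in 10 member windows (33.3%), 8.86% of all windows and 15.1% of those of tested genes. It occurred in 6 of the 12 members with a window that fell, 1 of 3 that rose and 2 of 13 not called. TCAAGGTCA was in 1 member window, 0.423% of all windows and 0.28% of those of tested genes, and AAGGTCA in 3, 4.72% and 3.30%. GCGCATGC was in 2 member windows, 2.71% and 4.57%, AAGATGGC in 2, 2.75% and 3.84%, and CACGTG in 4, 7.15% and 9.51%. A match is a description of letters, not a measured binding site.

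The Timm8b window overlaps that of a gene that behaved differently in these arrays. Timm8b and Sdhd, a succinate dehydrogenase subunit, start 52 bases apart and run in opposite directions, so that their windows share 151 bases. The shared stretch includes the TCAAGGTCA printed above, which lies 37 to 45 bases into Sdhd. Sdhd read 12.43, 12.39, 12.48, 12.32 and 12.34 in the vehicle-labelled arrays and 11.15, 11.23, 11.45, 11.26 and 10.95 in the tamoxifen-labelled ones. It fell 2.27-fold (-1.18 ± 0.074, limma adjusted p = 1.03e-08), while Timm8b was at 0.0080 ± 0.047 (limma adjusted p = 0.930). Sdhd and the neighbours named next were chosen after their values were seen.

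Such a divergent neighbour within 1000 bases was found for 11 members, and for 8 of these it was tested. Timm23 starts 58 bases from Parg, a gene of poly(ADP-ribose) breakdown, which rose by 0.21 ± 0.060 (limma adjusted p = 0.0212) where Timm23 fell. The Parg call was lost without vehicle-labelled array 4 (0.17, adjusted p = 0.0539). It was also lost without that array and tamoxifen-labelled array 2 together (0.13, adjusted p = 0.0535, range 0.00707 to 0.0539 over all alternatives). Chchd4 starts 284 bases from Tmem43, which rose by 0.44 ± 0.058 (limma adjusted p = 4.00e-05). Timm17b and Pqbp1 start 67 bases apart and were both higher, Pqbp1 by 0.17 ± 0.051 (limma adjusted p = 0.0273). The Pqbp1 call was lost without vehicle-labelled array 5 (adjusted p = 0.080) or tamoxifen-labelled array 4 (0.0575). It was also lost with no filter on dim signals (0.0568). Leaving out vehicle-labelled array 4 and tamoxifen-labelled array 2 together gave 0.0532 (range 0.00793 to 0.080 over all alternatives). None of the remaining 4 tested neighbours of Gfer, Immp1l, Pmpca and Timm9 was called.

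Other genes tied to import, on a list that excludes the members, fell in 8 of 18 cases and rose in 0. The shares over all tested genes were 8.31% lower and 13.7% higher. The median of the list was -0.14. Samm50, the core of the machinery that builds barrel proteins into the outer membrane, had the deepest fall, 0.73 ± 0.046 (limma adjusted p = 1.03e-08). Mtx2 of the same machinery fell by 0.49 ± 0.057 (adjusted p = 1.14e-05) and Mtx1 by 0.36 ± 0.064 (adjusted p = 0.000725), while Mtx3 was not called (-0.058). Oxa1l, which inserts proteins into the inner membrane from the matrix side, fell by 0.48 ± 0.049 (adjusted p = 2.28e-06), and the J protein gene Dnajc11 by 0.51 ± 0.063 (adjusted p = 2.19e-05). Of 9 listed cytosolic chaperones that keep precursors unfolded, 7 were tested. Hspa8 (log2 fold change 0.064) and Dnaja2 (-0.046) were not called. The chaperones were higher in 5 of 7 cases and lower in 0, against 13.7% and 8.31% of all tested genes, at a median of 0.38. Among them Hsp90aa1 rose by 0.44 ± 0.068 (limma adjusted p = 0.000185), Dnajb1 by 0.41 ± 0.077 (adjusted p = 0.00122), Dnaja1 by 0.38 ± 0.059 (adjusted p = 0.000178) and St13, an Hsp70 cofactor, by 0.38 ± 0.054 (adjusted p = 8.09e-05). Dnaja1 had the opposite sign, without a call, when probe sets shared by several genes were kept (-0.11, adjusted p = 0.253, range 1.44e-06 to 0.253 over all alternatives).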

How the data were processed

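Ventricular RNA of 10 mice was hybridised to Affymetrix mouse gene arrays, from 450 ng of total RNA per the labels' protocols. The authors deposited log2 signals; the submitters' processing notes name RMA and Expression Console 1.1 of Affymetrix; array background settings and the annotation behind the probe sets are not given in the sources used here. Of 35556 probe sets, 21789 had 1 gene symbol, 1621 several and 12146 none in the platform annotation. Probe sets with 1 symbol were used, the brightest per gene, and the dimmest 30% (cutoff 6.55 on the log2 scale) were left out. A probe set can also bind near-identical copies, which was not separated.

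Groups followed the titles. All 13870 genes were fitted with limma 3.58.1 (R 4.3.3; lmFit and eBayes, two-sided, no covariate, Benjamini-Hochberg over all genes, threshold 0.05), and intervals are those of this fit. Pairs were compared by exact permutation. The code was tested on simulated data. The number of arrays limits the precision. The members, pairs, lists and tests were chosen with earlier results of these data known. Every member with a probe set is accounted for. Of other import genes, up to 4 called genes per list and direction with the smallest p are named. Mtx1 and Mtx3, named beside Mtx2, and the uncalled Hspa8 and Dnaja2 are added to these. Timmdc1 and Hspd1 were also lower, with a smaller limma p than Mtx1. Protein sequences were not used here. Markers of endothelial, smooth muscle, T, B, skeletal muscle, erythroid and fat cells had 1, 2, 0, 0, 1, 0 and 0 genes higher and 0 lower, of 10, 6, 1, 1, 3, 2 and 2 tested. Alternatives are given in the closing section; figures were drawn with matplotlib 3.10.9.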

Additional observations from a re-analysis of the deposited data

Results flagged for a closer look

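In 9 of 70 groups of 5 arrays (33 import genes and both PGC-1 genes, each in 2 groups), 1 array lay far from the other 4 by Dixon's criterion; chance gives about 1 such group in 20. Tamoxifen-labelled array 2 accounts for 4 of them and was high in each. It read 8.98 for Timm10 (others 8.76 to 8.79), 8.45 for Timm22 (8.21 to 8.25), 9.42 for Timm50 (9.15 to 9.18) and 10.97 for Pmpca (10.83 to 10.85). Tamoxifen-labelled array 5 was low for Grpel1, at 9.64 against 9.78 to 9.80. Vehicle-labelled array 2 was high for Timm8a1, at 8.08 against 7.85 to 7.91, and low for Pam16, at 10.52 against 10.57 to 10.59. Vehicle-labelled array 1 was low for Tomm20, at 10.05 against 10.16 to 10.20, and vehicle-labelled array 3 for Tomm40, at 9.40 against 9.43 to 9.44.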

How the results depend on the processing

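Over 20 alternatives, 14 to 17 import genes were lower and 3 or 4 higher. Of the 15 lower genes 14 stayed lower in every alternative that gave them a value, with Tomm70a as the exception; of the 4 higher genes 3 stayed higher, with Timm17b as the exception; and 12 of the 14 uncalled genes stayed uncalled, with Tomm7 and Chchd4 as exceptions. Over all genes, 1780 were lower with weighted arrays against 1153; the cause was not tested. Each array left out in turn gave 14 to 16 import genes lower and 3 or 4 higher, and 940 to 1646 lower and 1493 to 1960 higher over all genes. Timm8b, at 0.0080 (-0.012 to 0.0235 with 1 array left out), had the opposite sign with array weights (-0.0045), after quantile normalization (-0.018) and without vehicle-labelled array 1 (-0.0055) or 5 (-0.00050) or tamoxifen-labelled array 2 (-0.012). Timm9, at -0.0020 (-0.030 to 0.040 with 1 array left out), had it after median centring (0.0040), without vehicle-labelled array 1 (0.010) or 2 (0.040) and without tamoxifen-labelled array 1 (0.021), 3 (0.0055) or 4 (0.0055). Dnaja1 had it when probe sets of several genes were kept (-0.11). None of these values was called.

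With the replicate number as a block, 17 import genes were lower and 3 higher, with Tomm7 (adjusted p = 0.0498) and Chchd4 (0.0205) gained and Timm17b (0.0503) lost. Deviations of same-numbered arrays correlated by 0.17, 0.20, 0.098, 0.039 and 0.17, and 3 of 5 tamoxifen-labelled arrays correlated best with their own number. Not every correlation passed the 0.1 set for treating the numbers as pairs, and the labels tie them to no litter or batch, so the unblocked fit was kept; whether the numbers mark a shared batch was not settled by these values. For the pairs of genes the block allows no p under 0.0625, and that value was reached for each: Tomm40l minus Tomm40 (-0.33), Timm17a minus Timm17b (-0.72), Timm8a1 minus Timm8b (-0.74), Dnajc15 minus Dnajc19 (-0.37), Grpel1 minus Grpel2 (-0.77), Pmpca minus Pmpcb (0.17), Tomm20 minus Tomm70a (0.30) and Timm23 minus Timm22 (-0.52). With the dimmest 50% left out, Timm8a1 and its pair had no value. Motifs counted only before the start site left CCGGAAG in 9 genes and AAGGTCA in 1. Signal over background is unknown, since RMA values carry no detection call.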
